A study of Mus musculus with 94 samples.

Results

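Kctd16, Ebf2 and St18 are 3 genes chosen by a PRO-seq readout: they stood among the largest gains of nascent transcription after 8 h of RAD21 degradation in differentiating mouse embryonic stem cells. They were found by symbol in the 4 deposited count tables, 3 genes of the 22529 in the PRO-seq table. The PRO-seq values therefore selected the members and are given as a description, without a test. The readout that chose them used no RNA values, and the RNA values were tested. Earlier results of these data were known when the members were chosen. Kctd16 lies on chromosome 18 (band 18B3), Ebf2 on chromosome 14 (band 14D1 in the PRO-seq table, 14D-E1 in the WAPL tables) and St18 on chromosome 1 (band 1A1), as the row labels give them, and all 3 are annotated as protein-coding.

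Cohesin is a ring-shaped complex that holds chromatin in loops. RAD21 is the subunit that closes the ring, and WAPL opens it so that cohesin comes off chromatin. PRO-seq maps RNA polymerase engaged in transcription, so it reads new synthesis, whereas poly(A) RNA-seq reads the stock of finished transcripts. KCTD16 is a cytoplasmic auxiliary subunit of the GABA-B receptor in neurons. EBF2 is a helix-loop-helix transcription factor known from neuronal differentiation, bone and brown fat precursors. ST18, also called MYT3, is a zinc finger transcription factor of the MYT family, known from neurons and pancreatic beta cells.

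All cells were the ES cell (Tsix-stop) line from the CAST/Ei x 129/Sv/Jae cross, so the untreated controls also carried the Tsix-stop allele and the degron tag. The degron is an FKBP tag that the small molecule dTAG-13 marks for destruction. In the RAD21-FKBP(degron) clones C4 and G9, cells received dTAG-13 (500 nM) or DMSO in equal volume for 8 h, with PRO-seq at day 7 and RNA at day 10 of differentiation (1 library per clone and treatment in each assay). In the WAPL-FKBP(degron) clones, treatment lasted 3 days. The window of days 4 to 7 had 2 replicates of clone H7 and 1 library of clone H2 per treatment, and the window of days 7 to 10 had 2 replicates of H7 per treatment. The stem cells were kept on irradiated fibroblast feeders before differentiation as embryoid bodies. The labels do not say whether the libraries came from separate cultures, so p-values measure the spread between these libraries. In the RAD21 sets, with 1 library per clone and treatment, the test takes that spread mostly from all genes together. Small p-values there do not measure the spread of the single gene.

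The 18 libraries analysed held 8413212 to 35388461 counts each, and 3 counts corresponded to 0.0848 to 0.357 CPM, the count of a gene scaled to the total of its library. Pluripotency genes were still measured in all tables: Pou5f1 RNA ran from 275 to 934 CPM over the 14 RNA libraries. Degradation acts on protein, so Rad21 and Wapl transcripts do not check the labels. In PRO-seq the mesoderm gene T ranged from 5.23 to 145 CPM over the 4 libraries, 82.2 ± 89.1 CPM with DMSO and 23.8 ± 26.3 CPM with dTAG-13 (SD, n = 2). It fell by 1.81 on the log2 scale (adjusted p = 1.99e-13, edgeR), and without the G9 control its value was 0.31.

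The nascent signal of Kctd16 was 44.3 CPM with DMSO and 113 CPM with dTAG-13 in clone C4, and 35.5 and 145 CPM in clone G9. Both treated libraries were well above both controls. The mean went from 39.9 ± 6.22 to 129 ± 22.6 CPM (SD, n = 2), a fitted log2 fold change of 1.66 (SE 0.11). The ratio was 2.54 in C4, with a 95% counting interval from 2.39 to 2.71, and 4.07 in G9, with an interval from 3.70 to 4.51. These intervals do not meet, and they cover counting error only, with 500.5 to 2617.5 expected counts behind each value.

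Ebf2 had 5.69 and 15.1 CPM of nascent signal in clone C4 (DMSO, dTAG-13) and 5.39 and 15.3 CPM in clone G9. The clones gave nearly the same levels in each arm, with means of 5.54 ± 0.21 and 15.2 ± 0.17 CPM (SD, n = 2). The fitted log2 fold change was 1.45 (SE 0.18). The ratio was 2.65 in C4 (95% counting interval from 2.22 to 3.17) and 2.84 in G9 (from 2.18 to 3.73), on 76 to 350 expected counts per library.

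St18 had 2.17 and 6.85 CPM in clone C4 and 4.40 and 10.1 CPM in clone G9. Both treated libraries were above both controls, and G9 was the higher clone in each arm. The means were 3.29 ± 1.57 and 8.49 ± 2.32 CPM (SD, n = 2), with a fitted log2 fold change of 1.44 (SE 0.23). The ratio was 3.15 in C4 (95% counting interval from 2.38 to 4.20) and 2.30 in G9 (from 1.71 to 3.16), on 62 to 159 expected counts per library. Leaving out 1 of the 4 libraries moved its log2 fold change between 0.95 and 1.97: it was 0.95 without the C4 control library.

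**Figure D1:**
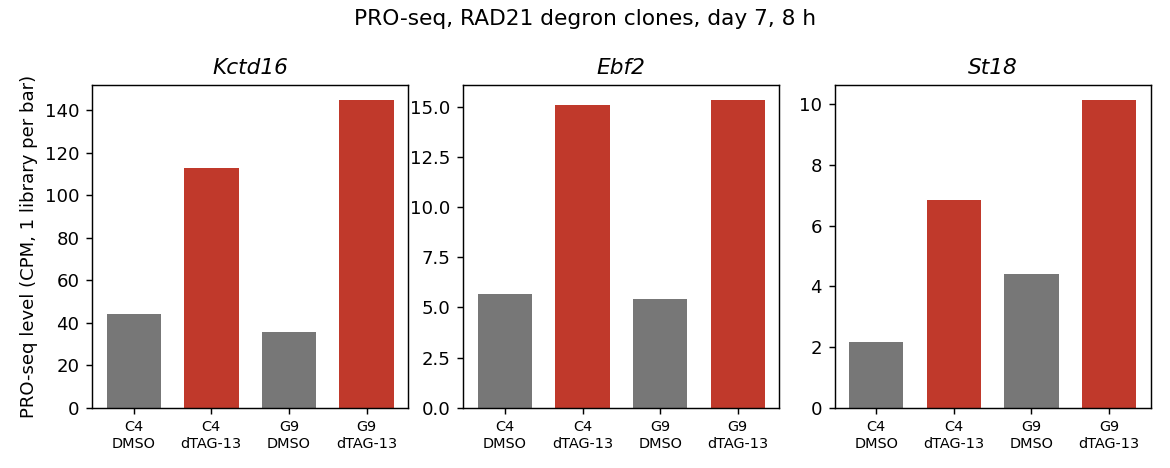
PRO-seq level in CPM (vertical axes start at 0, 1 scale per gene) in each of the 4 libraries of clones C4 and G9 at day 7, after 8 h of DMSO (grey) or dTAG-13 (red). In all 3 genes both treated libraries exceed both controls, from 44.3 to 113 CPM for Kctd16 in C4 and from 35.5 to 145 CPM in G9.

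Over all genes in PRO-seq, the quasi-likelihood test of edgeR (called at a Benjamini-Hochberg adjusted p under 0.05) called 974 rises and 769 falls among 16496 genes tested. That is 10.6% called in either direction and 5.90% called as rises. All 3 members are among the rises, which is how they were chosen, so nothing is read from that count. Among the 900 rises whose log2 CPM averaged 2 or more, the members stood at places 5, 6 and 8. The genes above them were the small noncoding RNA genes Rnu73b, Rmrp, Rnu12 and Rpph1, with log2 fold changes from 1.88 to 2.89. C630028M04Rik, at 1.44, lay between Ebf2 and St18. Just outside came Gsg1l and Stxbp5l, both at 1.40. Among all 974 rises, which include genes of lower signal, the members were at places 26, 39 and 41. The PRO-seq calls rest on the clone term: DESeq2 called 514 genes, and 0 were called without that term or with any 1 of the 4 libraries left out, which also removes it.

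The genes next to the members were read in the same PRO-seq libraries. Since the members were chosen for large gains, a smaller gain beside them was fixed in advance and nothing is read from it. The 5 genes on each side of each member were taken in RefSeq order, 30 in all, of which 25 were tested, and 2 of these rose (8%, against 5.90% over all genes). Both lay near Kctd16. Nr3c1, the glucocorticoid receptor gene, had 54.6 and 72.1 CPM in clone C4 (DMSO, dTAG-13) and 70.8 and 108.4 CPM in G9, a log2 fold change of 0.50 (adjusted p = 1.16e-04, edgeR). Sh3rf2, which encodes an SH3 and RING finger protein, had 4.74 and 8.83 CPM in C4 and 12.6 and 20.4 CPM in G9, a log2 fold change of 0.79 (adjusted p = 0.00182, edgeR). For Sh3rf2 the arms overlapped across clones, since the G9 control exceeded the treated C4 library, although both clones moved upward. Its log2 fold change was 0.21 without the C4 control, 1.25 without the treated C4 library, 1.62 without the G9 control and 0.04 without the treated G9 library. For Nr3c1 these values were 0.35, 0.79, 0.73 and 0.20.

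The direct neighbours of Kctd16, Yipf5 and Prelid2, had log2 fold changes of -0.02 and 0.05 and were not called. None of the 8 tested neighbours of Ebf2 was called. The nearest, Ppp2r2a, a phosphatase subunit gene, had a log2 fold change of 0.14. The highest of the 8 was 0.52, for Gnrh1, the gonadotropin-releasing hormone gene (adjusted p = 0.0767, edgeR). None of the 9 tested neighbours of St18 was called either, with values from -0.68 (Oprk1) to 0.17 (Rb1cc1). The flanking genes Fam150a and Pcmtd1 were at 0.04 and 0.00477.

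**Figure D2:**
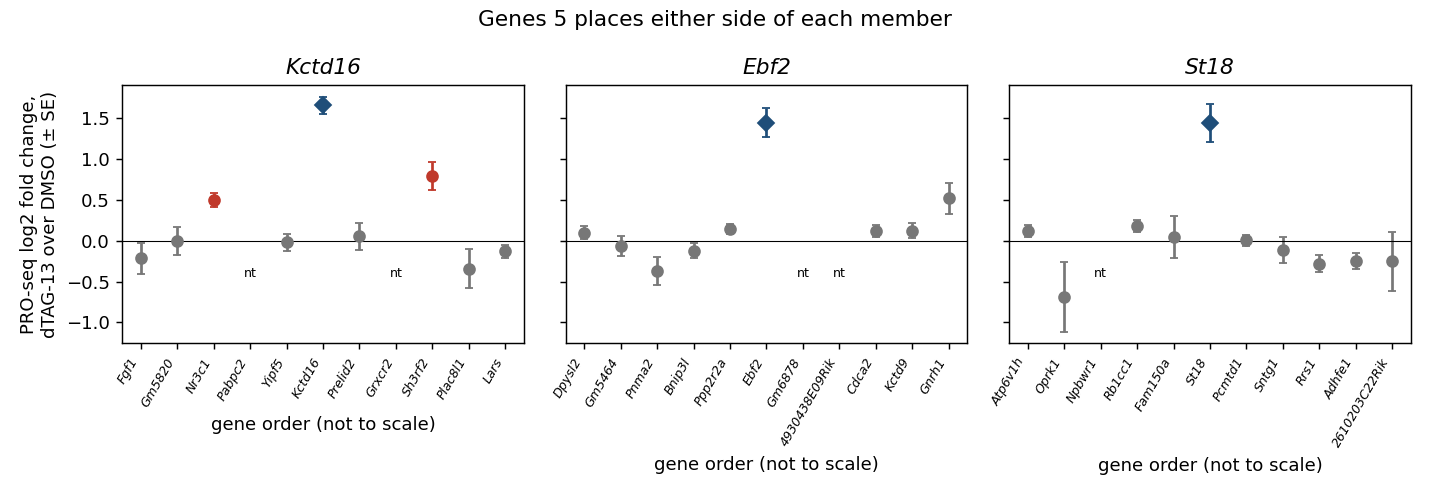
PRO-seq log2 fold change of dTAG-13 over DMSO with its standard error (vertical axis) for each member (blue diamond) and the 5 genes on either side in RefSeq order (points, red where the rise was called and grey where not, nt where not tested). Only Nr3c1 (0.50) and Sh3rf2 (0.79), both near Kctd16, were called among the 25 tested neighbours.

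Among the relatives and partners of the members, the genes called went in both directions. The other 5 genes of the EBF list were Ebf1, Ebf3, Ebf4 and the partner zinc finger genes Zfp423 and Zfp521. Of these, 0 rose and 1 fell in PRO-seq, where 10.6% of all genes were called. Their median log2 fold change was 0.13, against -0.00286 over all genes tested. The 1 that fell was Ebf1, the family member known from B cell specification. Its nascent level was 37.0 and 22.7 CPM in clone C4 and 38.2 and 25.5 CPM in clone G9, a log2 fold change of -0.65 (adjusted p = 1.84e-04, edgeR). Ebf1 was lower in both treated libraries, in the direction opposite to Ebf2. Ebf3 was at 0.53 (adjusted p = 0.0637, edgeR) and Ebf4 at 0.27, neither called. Of the MYT family, Myt1l and Myt1 were at 0.22 and -0.08 and were not called.

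The GABA-B list held receptor subunits, KCTD auxiliary subunits, G proteins and effector channels. Of its 14 tested genes other than Kctd16, 3 rose and 1 fell in PRO-seq, with a median of -0.10. Over all genes 10.6% were called in either direction and 5.90% as rises, and the list was not tested as a set. Kctd8, a paralogous auxiliary subunit, had 4.66 and 8.66 CPM in clone C4 and 6.67 and 10.8 CPM in G9, a log2 fold change of 0.80 (adjusted p = 0.00593, edgeR). DESeq2 did not call it (adjusted p = 0.182). Cacna1b, a calcium channel subunit, and Gnao1, a G protein subunit, were at 0.26 and 0.30 (adjusted p = 0.0172 and 0.0364, edgeR). Kcnj3, a subunit of the potassium channel opened by the receptor, fell by 0.86 (adjusted p = 1.82e-09, edgeR). It was at -0.53 without the treated C4 library and -0.49 without the G9 control. The receptor subunits themselves, Gabbr1 and Gabbr2, were at -0.13 and -0.21 and were not called.

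Marker lists of cell types were read in the same PRO-seq libraries, where 10.6% of all genes were called. Of 9 pluripotency markers 6 fell, and their sum was 686 and 543 CPM in C4 and 566 and 394 CPM in G9 (DMSO, dTAG-13). Of 8 mesoderm markers 2 fell, T and Tcf15, and the sum was 73.2 and 42.4 CPM in C4 and 224 and 97.1 CPM in G9. T alone averaged 82.2 and 23.8 CPM of that sum (DMSO, dTAG-13). Of the brown fat programme 0 of 7 tested genes were called, and of endocrine pancreas markers 0 of 5, lists too short for 0 to stand apart from that share. Of 5 endoderm markers tested, 1 rose and 2 fell. Of 14 proneural and neuronal genes, 2 rose, Neurod1 and Tubb3, and 2 fell, Stmn2 and Nes. Of 8 neural crest markers, 2 rose, Ets1 (log2 fold change 0.73) and Pax3 (1.14). The summed level of neural crest markers was 59.8 and 68.0 CPM in C4 and 75.4 and 110 CPM in G9 (DMSO, dTAG-13). None of these markers was at 0 in any of the 4 libraries. Of 7 fibroblast and feeder markers 0 were called, with sums of 53.9 to 63.3 CPM and 0 to 2 markers at 0 per library. The part of cell composition in the members' gain was not tested, and in bulk samples fewer cells of a type and less RNA per cell cannot be told apart.

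RNA of the members was scarce. Of the 3 genes, 3, 2 and 1 had values analysed here in the WAPL days 4 to 7, WAPL days 7 to 10 and RAD21 tables, and 1, 2 and 1 passed the filter on low counts. CPM in PRO-seq and in RNA are shares of different libraries and are not compared with each other.

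Kctd16 RNA after 8 h without RAD21 at day 10 was 0.671 and 1.17 CPM in clone C4 (DMSO, dTAG-13; 16 and 31 counts) and 0.347 and 0.748 CPM in clone G9 (12 and 10 counts). The arms did not overlap: the treated G9 library lay just above the C4 control. The means were 0.509 ± 0.23 and 0.961 ± 0.30 CPM (SD, n = 2), a log2 fold change of 0.91 (SE 0.41, unadjusted p = 0.0263, adjusted p = 0.110 in edgeR's quasi-likelihood test). The 95% counting interval of the ratio ran from 0.928 to 3.42 in C4 and from 0.834 to 5.44 in G9, so both included 1. The rise was therefore not called, in a table where 18.7% of 14470 genes were. That share itself depends on the clone term: 1 gene was called without it and 16 to 94 with 1 library left out. Ebf2 and St18 were not analysed here in that table.

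After RAD21 loss, 5 tested genes of the EBF and GABA-B lists were called in RNA, and all 5 fell, beside 1286 falls among the 14470 genes tested. Ebf1 RNA was 5.29 and 1.82 CPM in C4 and 3.73 and 0.748 CPM in G9, so both treated libraries were below both controls. Its log2 fold change was -1.76 (SE 0.25, adjusted p = 8.92e-11, edgeR), and it was the only gene called of 4 tested on the EBF list. Leaving out the C4 control, the treated C4 library or the treated G9 library ended that call (adjusted p = 0.337, 0.0558 and 0.615). On the GABA-B list 0 rose and 4 fell of 12 tested: Kctd12b by 0.71, Kcnj3 by 1.00, Gnai1 by 0.26 and Gabbr1 by 0.30 on the log2 scale. The calls for Kctd12b, Kcnj3, Gnai1 and Gabbr1 ended without the clone term. Sh3rf2, near Kctd16, rose by 0.74 (adjusted p = 5.04e-10, edgeR), while Nr3c1 was at 0.05. Near Ebf2, Cdca2 and Kctd9 rose by 0.19 and 0.21 and Pnma2 fell by 0.42, and near St18, Rb1cc1 rose by 0.24. The Sh3rf2 call was lost with any 1 of the 4 libraries left out, at log2 fold changes from 0.51 to 0.96.

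Ebf2 RNA rose when WAPL was degraded from day 4 to day 7. It was 0.417, 0.660 and 0.498 CPM in the DMSO libraries (H7 replicates 1 and 2, then H2) and 1.24, 3.59 and 2.62 CPM in the matching dTAG-13 libraries. Every treated library exceeded every control. The counts behind these values were 15, 14 and 4 with DMSO and 16, 103 and 34 with dTAG-13. The means were 0.525 ± 0.12 and 2.48 ± 1.18 CPM (SD, n = 3), a log2 fold change of 2.32 (SE 0.45, adjusted p = 0.0137, edgeR's quasi-likelihood test). The test called 1376 rises and 833 falls, 15.2% of 14544 genes, and Ebf2 was the 1 member tested there. It passed the low-count filter through its treated libraries, where it was high, so its entry into the test depended on the rise. The fit without a filter gave Ebf2 a log2 fold change of 2.32 (SE 0.39, adjusted p = 2.89e-04, edgeR). The ratio was 2.96, 5.44 and 5.25 in the 3 pairs, with lower 95% counting bounds of 1.37, 3.10 and 1.87.

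The Ebf2 rise did not pass the threshold in clone H7 alone (adjusted p = 0.0881, log2 fold change 2.30). Leaving out 1 library ended the call for the control of H7 replicate 1 (adjusted p = 0.0639), the H2 control (0.0896) and the treated H2 library (0.0894). The log2 fold change ran from 1.62 to 2.70 over the 6 such fits. With the replicate number as a block it was 2.13 (adjusted p = 8.60e-04, edgeR), and that fit called 3993 genes.

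Other genes changed beside Ebf2 in the same libraries, where 15.2% of all genes were called. Of 8 fibroblast and feeder markers, 4 rose, among them Col1a2 by 0.93, Dcn by 1.15 and Postn by 2.21 on the log2 scale, while Thy1 fell by 0.89. The summed level of the 9 listed markers was 88.5 to 112 CPM with DMSO and 137 to 145 CPM with dTAG-13. Of 8 neural crest markers, Ets1 (1.57), Snai2 (1.82) and Ngfr (1.10) rose and Foxd3 fell by 1.01. Their sum was 87.0 to 106 CPM with DMSO and 115 to 134 CPM with dTAG-13. Ets1 averaged 18.7 CPM of that sum with DMSO and 55.8 CPM with dTAG-13, and Foxd3 averaged 48.7 and 23.9 CPM. Of the 8 markers named from both lists, Ets1 alone stayed called in clone H7 alone and with either H2 library left out. In both lists at most 1 marker was at 0 in a library, in the H2 control. Mesoderm markers, of which 2 rose and 1 fell of 8, summed to 209 to 279 CPM with DMSO and 253 to 431 CPM with dTAG-13. T alone averaged 180 and 247 CPM of that sum (DMSO, dTAG-13). Of 5 endoderm markers tested, Sox17 rose by 1.32 and Foxa2 fell by 2.03 on the log2 scale. The part of these cell types in the Ebf2 rise was not tested. Of the brown fat programme, which EBF2 is known to serve, 0 of 5 tested genes were called, a list too short for 0 to stand apart from that share. The sum of its 11 listed genes was 32.5 to 33.1 CPM with DMSO and 27.6 to 33.1 CPM with dTAG-13. Cebpb alone averaged 22.4 and 18.1 CPM of it (DMSO, dTAG-13).

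Within the EBF list, Ebf4 also rose, from 2.52 ± 0.45 to 5.23 ± 1.20 CPM (SD, n = 3; log2 fold change 1.03, adjusted p = 0.0278, edgeR). Its call ended with the control of H7 replicate 1 or 2, the treated library of H7 replicate 2 or either H2 library left out. Ebf1 was at 0.08 and Ebf3 at 0.72, neither called, and Zfp521 was at -0.51 (adjusted p = 0.0542, edgeR). Values for Ebf1 were 5.40 ± 1.32 CPM with DMSO and 5.64 ± 0.92 CPM with dTAG-13 (SD, n = 3), which overlapped.

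Kctd16 RNA did not rise in that window. It was 0.890, 1.46 and 0.498 CPM with DMSO and 0.541, 0.383 and 0.385 CPM with dTAG-13, on 4 to 32 counts per library. Each treated library was below its paired control, but the arms overlapped, since the H2 control lay below the treated library of H7 replicate 1. Kctd16 missed the low-count filter, and the fit without a filter gave a log2 fold change of -1.18 (SE 0.45, adjusted p = 0.0852, edgeR). With the replicate number as a block the value was -1.25 and passed the threshold (adjusted p = 0.0337, edgeR). Without the control or the treated library of H7 replicate 2 it was -0.85 or -0.89 (adjusted p = 0.423 and 0.367).

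On the GABA-B list, 2 of 12 tested genes rose and 2 fell in that window, where 15.2% of all genes were called. The median log2 fold change of the list was -0.18 against -0.00670 over all genes. Kctd12, an auxiliary subunit, rose from 8.09 to 9.56 CPM in the 3 control libraries to 12.9 to 26.2 CPM in the treated ones (log2 fold change 1.10, adjusted p = 0.0128, edgeR). Cacna1b rose by 0.82, Kcnj3 fell by 1.09 and Gabbr1 fell by 0.58 on the log2 scale. Of these 4 calls, that of Cacna1b held under every alternative run, and those of Kctd12, Kcnj3 and Gabbr1 were lost in clone H7 alone. Beside Kctd16, Sh3rf2 went from 2.76 ± 0.99 to 12.6 ± 3.24 CPM (SD, n = 3), a log2 fold change of 2.12 (adjusted p = 0.00408, edgeR) that stayed called in every alternative. Fgf1 rose by 1.08, and Prelid2 and Lars fell by 0.85 and 0.47. Near Ebf2, Kctd9 rose by 0.54 and 0 of 6 tested neighbours fell, and near St18, Rrs1 and Adhfe1 fell by 0.60 and 1.12. Ebf2 itself had the largest value among these genes.

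St18 RNA was at the limit of the counts in that window. It had 1, 2 and 0 counts with DMSO and 0, 1 and 4 counts with dTAG-13 (H7 replicates 1 and 2, then H2). With 3 counts over the control libraries and 5 over the treated ones, no change was detectable at this depth. Its 2 relatives, Myt1 and Myt1l, did not pass the filter either, with summed levels of 0.0773 to 0.770 CPM per library.

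When WAPL was degraded from day 7 to day 10, Ebf2 RNA was again higher in both treated libraries. It was 1.17 and 1.92 CPM with DMSO and 2.72 and 4.85 CPM with dTAG-13 (22, 38, 33 and 132 counts), and the arms did not overlap. The log2 fold change was 1.32 (SE 0.44, unadjusted p = 0.0299), which did not pass adjustment (adjusted p = 0.701, edgeR). Of 14110 genes tested, 0 were called (0%) by edgeR's quasi-likelihood test, 926 had an unadjusted p under 0.05, DESeq2 called 44 and limma-voom 0. The paired ratios were 2.33 and 2.53, with 95% counting intervals from 1.32 to 4.19 and from 1.75 to 3.73. Kctd16 was at 0.106 and 0.607 CPM with DMSO and 0.165 and 0.515 CPM with dTAG-13, on 2 to 14 counts, with a log2 fold change of 0.09 (SE 0.91, adjusted p = 0.999, edgeR). Replicate 1 was the lower of the 2 replicates in both genes and both arms. Fibroblast and feeder markers summed to 161 and 232 CPM with DMSO and 185 and 257 CPM with dTAG-13 (H7 replicates 1 and 2), and 0 of 8 were called. St18 was not analysed here in that table.

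**Figure D3:**
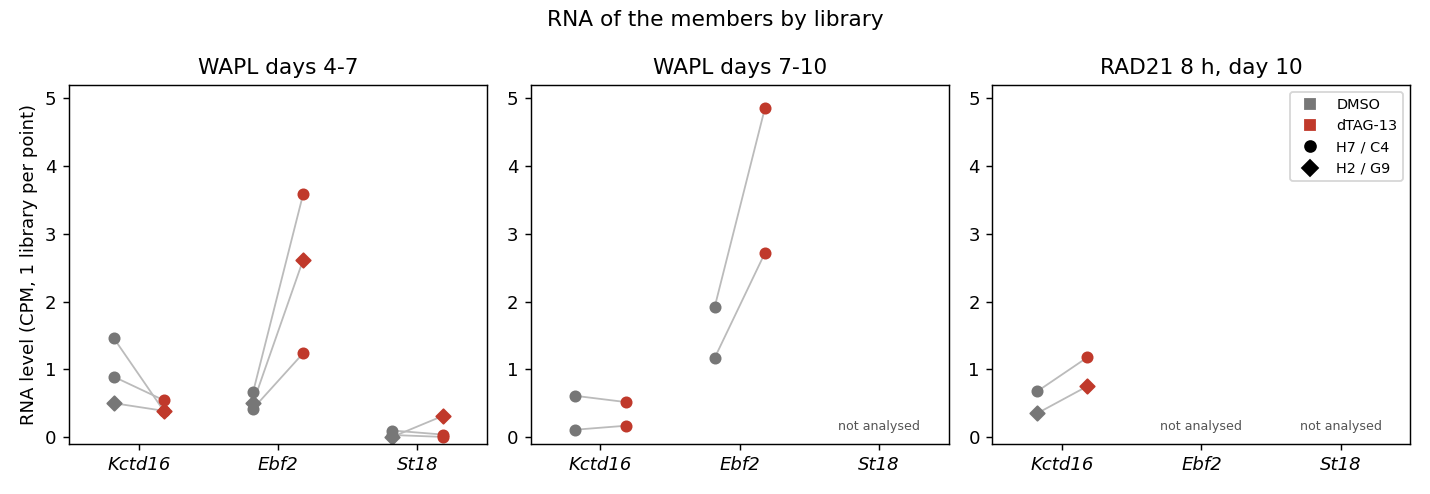
RNA level in CPM (vertical axis) of each member in each library of the 3 RNA comparisons, DMSO in grey and dTAG-13 in red, with lines joining libraries of the same clone and replicate (circles H7 or C4, diamonds H2 or G9). Ebf2 is higher in all treated WAPL libraries (1.24 to 3.59 CPM against 0.417 to 0.660 CPM in days 4 to 7), while Kctd16 stays under 1.5 CPM and St18 near 0.

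The Ebf2 response was not shown to differ between the WAPL windows. The difference in log2 fold change (days 7 to 10 minus days 4 to 7) was -0.96 (SE 0.71, unadjusted p = 0.21), and for Kctd16 it was 1.30 (SE 0.97, unadjusted p = 0.216). Over all genes 0 of 14326 were called for this difference (0%) by edgeR's quasi-likelihood test, the 1 tool run, and 423 had an unadjusted p under 0.05. With the replicate number as a block 5 genes were called, and neither Ebf2 (-0.83, adjusted p = 0.578) nor Kctd16 (1.19, adjusted p = 0.712) was among them. The control level of Ebf2 was 0.525 ± 0.12 CPM at day 7 and 1.54 ± 0.53 CPM at day 10 (SD, n = 3 and 2), in tables that were scaled separately.

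The members' RNA and nascent values are set side by side only as a description, since treatment, day or clone differed between them. PRO-seq was read at day 7 after 8 h of RAD21 loss, and RAD21 RNA at day 10, where only Kctd16 was analysed. The WAPL RNA came from other clones after 3 days of treatment. Ebf2 was higher in the treated library in all 7 pairs where it was analysed, 2 of them the PRO-seq pairs that chose it. Kctd16 was higher in both RAD21 clones in both assays, the PRO-seq pairs having chosen it, and lower in all 3 pairs of WAPL days 4 to 7. In RAD21 RNA both of its counting intervals included 1. In the 2 pairs of WAPL days 7 to 10 its ratios were 1.55, on 2 counts in each library, and 0.849. The ratios in the 3 pairs of days 4 to 7 were 0.608, 0.262 and 0.772, and that of H7 replicate 2 had a 95% counting interval below 1 (from 0.119 to 0.537).

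**Figure D4:**
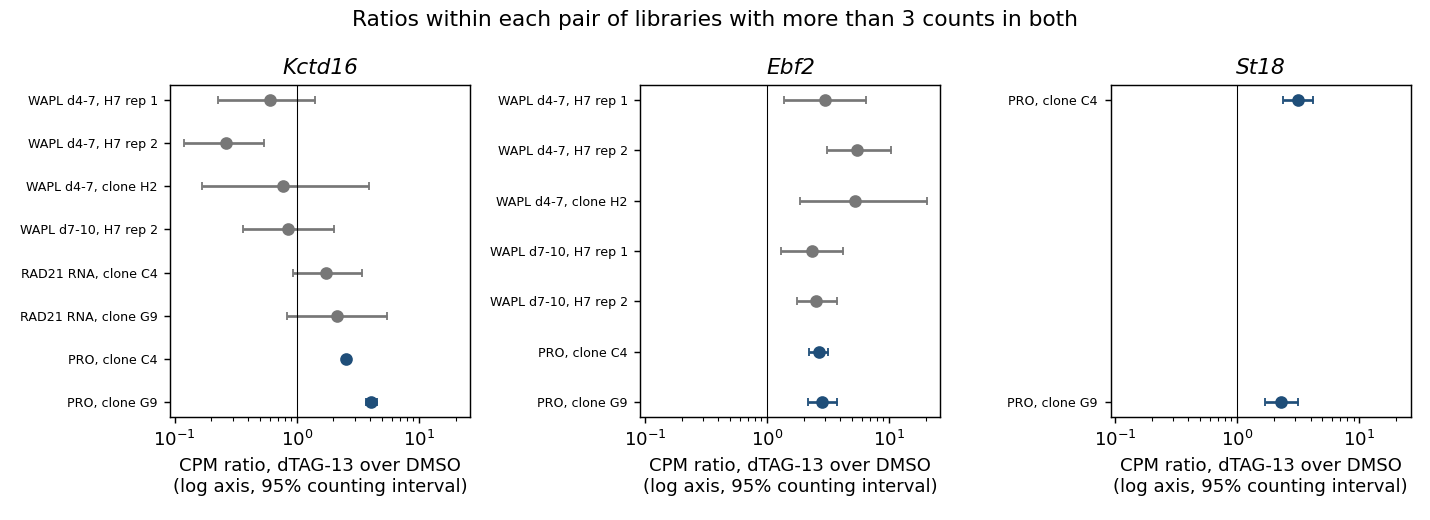
Ratio of CPM, dTAG-13 over DMSO (horizontal log axis), within each pair of libraries that had more than 3 counts in both, with its 95% counting interval (bars), PRO-seq in blue and RNA in grey. The PRO-seq ratios lie above 1 in a readout whose gain chose the members. All 7 Ebf2 ratios lie above 1, 2 of them PRO-seq, and its RNA ratios run from 2.33 to 5.44. Kctd16 RNA lies above 1 in the RAD21 pairs, where both intervals include 1, and below 1 in the WAPL pairs shown. These leave out the days 7 to 10 pair with 2 counts in each library.

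The genes whose treated-minus-control log2 differences were nearest to a member's, over all pairs in which both were measured, were named by root mean square distance, which uses the PRO-seq values too. For Kctd16, over 9 pairs, they were Cdh10 (0.68), Adamts1 (0.72), Rab26os (0.73) and Tubb3 (0.74), against a median distance of 1.13 over 11632 candidates. For Ebf2, over 7 pairs, they were Rab7b (0.36), Macc1 (0.39), Inpp4b (0.43) and Tnfaip6 (0.46), against 1.68. The genes named have the smallest distances, so lying below the median was fixed in advance and nothing is read from it. The Kctd16 RNA pairs held only 2 to 32 counts per library. None is given for St18, whose RNA pairs held 0 to 4 counts per library. Pairs of 1 table share library depth and, in part, clone.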

How the data were processed

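Of 94 samples in the series, 14 libraries of poly(A) RNA and 4 of PRO-seq were analysed. For RNA the authors deposited unnormalized counts per gene. For PRO-seq they deposited expected counts, in steps of 0.5, rounded here before fitting. Per the submitters' processing notes, mm9 was among the genome builds. How reads were counted, and whether by strand, is not given in the sources used here. The RefSeq gene table (GRCm38.p6) served only for gene order.

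Counts were fitted with edgeR 4.0.16 (R 4.3.3): low-count filter with a minimum count of 10, TMM scaling, quasi-likelihood test, Benjamini-Hochberg adjustment over all genes, threshold 0.05. A clone term was included except in days 7 to 10. DESeq2 1.42.0, limma-voom (limma 3.58.1), other scalings and filters and leaving out each library were the alternatives. Figures were drawn with matplotlib. The code was tested on simulated data.

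In WAPL days 4 to 7 the same-numbered libraries deviated together (r = 0.52, 0.54 and 0.63). The numbers were taken to pair them for the ratios and for the fits with a block. The main fits of the WAPL sets did not include the replicate number. Clone H2 has 1 library per arm, so these deviations were taken across clones. Such r values hold the clone difference too and cannot show by themselves that the H7 numbers pair libraries. In the RAD21 sets the clone term pairs the libraries.

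The members and the gene lists were chosen with earlier results of these data known. Named were the members, every measured gene of the EBF, MYT and GABA-B lists, up to 4 genes of each other list by smallest p, 5 neighbours on each side and the 4 most alike genes of Kctd16 and Ebf2. A planned rule for long genes was not run. ChIP-seq, Hi-C and CHART samples were not analysed here.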

Additional observations from a re-analysis of the deposited data

Results flagged for a closer look

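St18 RNA in WAPL days 4 to 7 went in opposite directions in clones H7 and H2. Its counts went from 1 to 0 and from 2 to 1 in the H7 replicates and from 0 to 4 in H2. The H2 log2 difference exceeded the H7 mean by 2.47 on a log2 CPM scale with a prior count of 2. This difference was not tested, H2 has 1 pair, and all 6 libraries held 4 counts or fewer.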

How the results depend on the processing

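For the members, scaling, the tool and the filter changed no call in the WAPL days 4 to 7 and RAD21 RNA tables where they gave a value. Ebf2 in days 4 to 7 had a log2 fold change of 2.30 in clone H7 alone, no longer past the threshold, and 1.62 to 2.70 with 1 library left out. Kctd16 in that window, which needed the fit without a filter (a base chosen after seeing the data), passed with the replicate block at -1.25. In days 7 to 10 the numbers pair only 2 libraries per arm (r = 0.79). With the replicate block Ebf2 was at 1.29 (adjusted p = 1.10e-04, edgeR), Kctd16 at -0.11, and 5141 genes were called. Kctd16 there was at -0.016 in DESeq2 and from -1.10 to 0.54 with 1 library left out, and the fit without the DMSO replicate 2 and the mean count filter gave it no value. St18 in PRO-seq ran from 0.95 to 1.97 with 1 library left out. Genes called numbered, for days 4 to 7, 3993 with the replicate block, 994 without the clone term, 360 in clone H7 alone and 341 to 4433 with 1 library left out. For days 7 to 10 they numbered 44 in DESeq2 and 27 to 143 with 1 library left out. For RAD21 RNA they numbered 472 in DESeq2, 1 without the clone term and 16 to 94 with 1 library left out. For PRO-seq they numbered 514, 0 and 0 in the same order. For the difference between windows 5 were called with the replicate block. With 1 library left out Nes in PRO-seq ran from -0.46 to 0.048 and T from -3.96 to 0.31, and both turned without the G9 control. Of 572 alternatives for 45 other called results, 345 kept the call, 225 lost it and 2 turned. The low counts behind Kctd16 and Ebf2 RNA (2 to 132 per library) limit these values. The causes were not tested.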
